A study of Homo sapiens with 12 samples.

Results

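The zinc finger genes of chromosome 19 form a large block of related transcription factor genes. They were chosen here by name alone, as the protein-coding genes of the GENCODE annotation on chromosome 19 whose symbol is ZNF followed by a number. This gave 240 genes out of 20033 protein-coding genes, and left 1236 other protein-coding genes on the same chromosome. H3K27me3 was measured by ChIP-seq in SH-SY5Y, a human neuroblastoma line of noradrenergic type. The groups were the Tau-expressing cells (WT) and the Tau-KO lines 231K and 232P, in which MAPT, the gene of the microtubule-associated protein Tau, was disrupted. Each of these 3 genotypes had 2 replicates, all were grown in the same medium without treatment, and the 6 input samples were not analysed here. Each Tau-KO line is a single line, so that line and genotype cannot be told apart. The replicates are described as biological, without a statement that they were separate cultures, and a p-value measures the spread between these samples.

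H3K27me3 is laid down by the polycomb repressive complex 2 (PRC2), with EZH2 or EZH1 as the methyltransferase and SUZ12 and EED as core subunits. It covers developmental and tissue-specific genes that a cell keeps silent. Most zinc finger genes of chromosome 19 code for KRAB zinc finger proteins. These bind DNA, often in transposable elements, through tandem C2H2 fingers, and the KRAB domain brings in TRIM28 and the methyltransferase SETDB1, which sets a different silencing mark on lysine 9 of histone 3. The genes arose by tandem duplication and lie in clusters, with genes of other families between them.

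The data were 1 list of peaks per sample. A peak is a stretch in which the precipitated reads exceeded the local background, and each carries a fold enrichment over that background and a -log10 q-value at its summit. WT replicates 1 and 2 had 285826 and 222191 peaks, the samples of 231K 271413 and 212347, and those of 232P 147118 and 199677. On chromosome 19 they held 6117 and 4283, 6230 and 4027, and 6131 and 4550 peaks in the same order. For 232P replicate 1 this was 4.17% of its list, against 1.90% to 2.30% in the other lists. The relative depth was estimated from the smallest background that the peak values imply, divided by the smallest peak width. It could not be checked against read counts. The estimate reached 100% and 66.6% in WT, 94.8% and 68.7% in 231K, and 68.1% and 56.9% in 232P, relative to the deepest sample. No peak was narrower than 175 to 179 bp in any replicate 1 or than 240 to 262 bp in any replicate 2, which sets the replicate numbers apart in a technical property. A gene without a peak is a gene at which nothing passed the threshold at that depth, and no interval from read counts could be given.

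The lists were first checked at genes that mark this cell type. Of the noradrenergic neuroblastoma genes reported here, PHOX2A, HAND2, GATA2, GATA3, ISL1, TH, DBH and CHGA, none had a peak within 1 kb of a start site in any sample. Of 8 genes of other lineages, 5 (PAX6, CDX2, PTF1A, TBX5 and PAX7) had one in all 6 samples. No peak overlapped MAPT in any sample, which leaves the genotypes without a check from the peaks.

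The chr19 ZNF genes were almost free of H3K27me3 peaks in all 6 samples. A TSS mark, which is a peak within 1 kb on either side of any annotated start site, was found at 1 and 2 of the 240 genes in WT replicates 1 and 2, at 1 and 2 in 231K, and at 0 and 3 in 232P. This is 0.625% ± 0.437 of the genes (SD, n = 6). Of the other 1236 genes on the chromosome, 245 to 293 had a TSS mark, or 22.2% ± 1.41 (SD, n = 6). The 2 groups of genes did not overlap in any sample. Over all protein-coding genes the share was 17.0% ± 1.62, and for the 236 genes of the same naming on other chromosomes it was 4.73% ± 1.21 (SD, n = 6). The 24 zinc finger genes of chromosome 19 with other kinds of names, such as ZFP and ZSCAN genes, stood higher, at 14.6% ± 2.28 (SD, n = 6).

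Taken over the samples, 5 of the 240 genes (2.08%) had a TSS mark in at least 1 sample and none had it in all 6. For the other chr19 genes, these numbers were 327 (26.5%) and 226 (18.3%). With peaks of a -log10 q-value of at least 5, no chr19 ZNF gene had a TSS mark in any sample. With a window of 2.5 kb on either side, 9 and 6 genes had one in WT, 10 and 9 in 231K, and 3 and 8 in 232P.

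**Figure D1:**
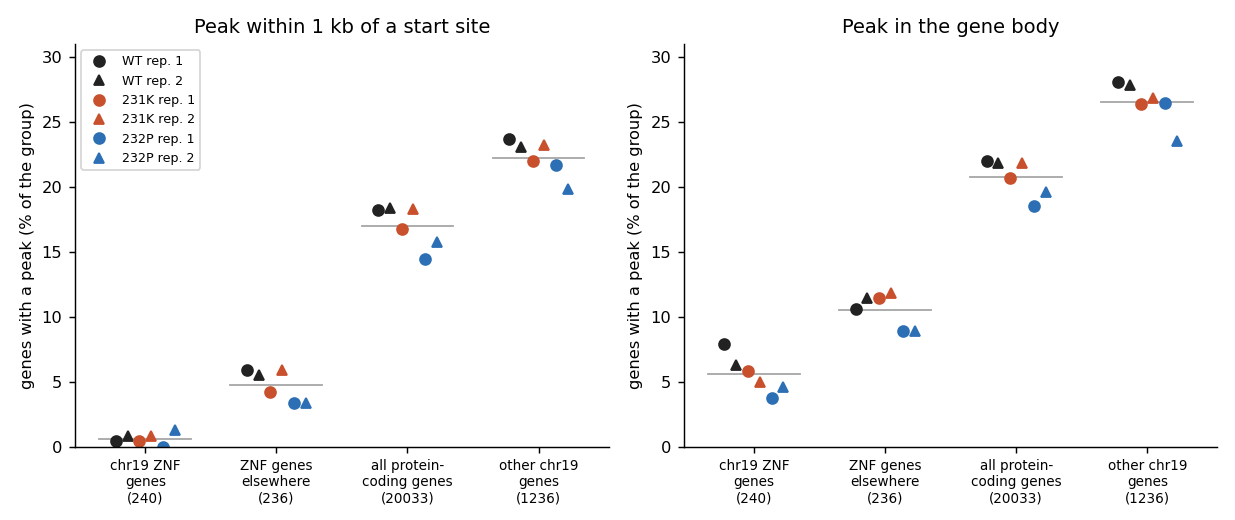
Share of genes in percent (y axis) with an H3K27me3 peak within 1 kb of a start site (left) or in the gene body (right), for 4 groups of genes. Each point is 1 sample, the colour gives the genotype, the shape gives the replicate number, and the grey line is the mean of the 6 samples. The chr19 ZNF genes lie lowest in both panels, at 0.625% and 5.56% on average, and the other chr19 genes highest, at 22.2% and 26.5%.

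Gene bodies were rarely marked in the ZNF genes as well. A peak lay anywhere between the first and the last annotated base in 19 and 15 of the 240 genes in WT replicates 1 and 2, in 14 and 12 in 231K, and in 9 and 11 in 232P, or 5.56% ± 1.46 (SD, n = 6). For the other chr19 genes the share was 26.5% ± 1.62, for all protein-coding genes 20.7% ± 1.42, for the zinc finger genes of chromosome 19 with other names 25% ± 3.73 and for the ZNF genes elsewhere 10.5% ± 1.32 (SD, n = 6). Of all bases in the bodies of the chr19 ZNF genes, 0.195% to 0.835% were covered by peaks (0.644% ± 0.245, SD, n = 6), against 6.12% to 11.8% (9.56% ± 2.23, SD, n = 6) of those in the other genes. Longer genes had peaks more often within the family. A peak in the body was found in no sample for the 24 genes under 10 kb, in 2.40% on average of the 125 genes of 10 to 30 kb and in 11.4% of the 91 longer genes. The other chr19 genes had peaks in 24.1%, 27.4% and 28.7% of these length classes.

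Of the 240 genes, 217 had no peak in the body in any sample, 7 had one in 1 sample only, and 7 had one in all 6 (ZNF20, ZNF333, ZNF93, ZNF675, ZNF420, ZNF229 and ZNF577). Among the 217 were several genes with known roles. ZNF91, a repressor of SVA retrotransposons, was at 0% of its body in all 6 samples. So was ZNF274, which binds the 3′ ends of zinc finger genes and recruits SETDB1. The imprinted gene ZNF331, the genes ZNF154 and ZNF132, which are often DNA-methylated in tumours, and ZNF536, a regulator of neuronal differentiation, were at 0% as well.

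Coverage was low from just before the gene start onwards. From 1 kb before the 5′ end to the end itself, 0.161% of bases on average over the 6 samples were covered (range 0% to 0.465%), and in the next 1 kb 0.119% (0% to 0.288%). Between 4 and 5 kb before the 5′ end it was 4.31% (1.57% to 6.47%). Coverage therefore fell within a few kb upstream of the start. It then stayed low for more than 20 kb downstream of the 5′ end, with 0.423% at 20 to 21 kb. At such distances the bins lie past the end of the shorter genes, such as the 24 genes under 10 kb. Within the genes, the first 10% of the body length was covered to 0.115% ± 0.0870 and the last 10% to 0.905% ± 0.330 (SD, n = 6). For the other chr19 genes, coverage was 10.8% in the last 1 kb before the start and 12.1% between 4 and 5 kb before it, which is a much flatter course.

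**Figure D2:**
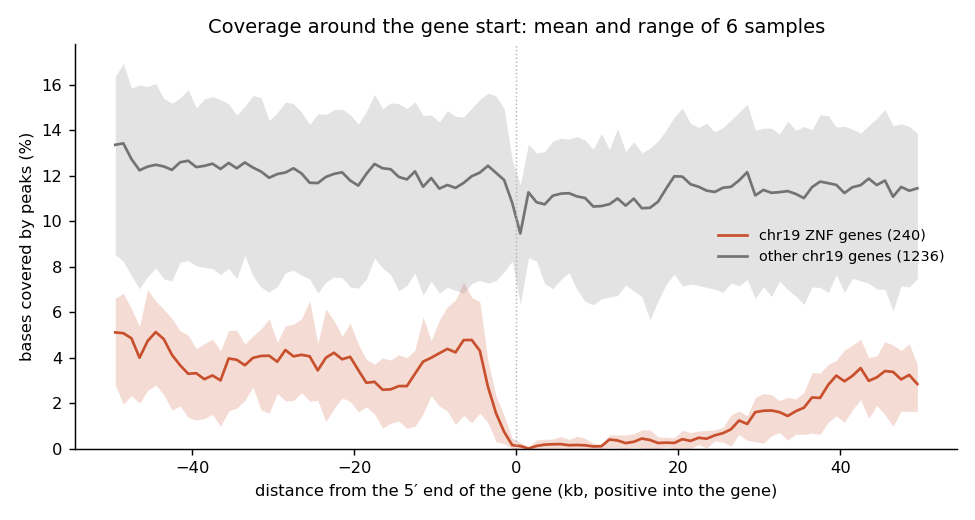
Percent of bases covered by peaks (y axis, 1-kb bins) against the distance from the 5′ end of the gene in kb (x axis, positive downstream). Downstream bins run past the end of shorter genes. Lines are the mean of 6 samples and bands their range, for 240 chr19 ZNF genes and 1236 other chr19 genes. The ZNF genes drop from 4.31% at 4 to 5 kb upstream to 0.161% in the last 1 kb before the start, while the other genes are at 12.1% and 10.8% at these distances.

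In several clusters, the genes between the ZNF genes carried the mark that the ZNF genes lacked. With neighbours at most 500 kb apart and at least 5 genes, 228 of the 240 genes fell into 10 clusters, and 12 lay outside. The spans of these clusters held 117 other protein-coding genes, and 34 to 38 of them had a TSS mark, which is 29.1% to 32.5%. Outside the spans this share was 18.9% to 23.1%. Of the 228 clustered ZNF genes, 0 to 3 had a TSS mark. Of the 117 neighbours, 33 had a TSS mark in all 6 samples. Several of them belong to families that serve specialised cells. All 3 formyl peptide receptor genes, which detect bacterial peptides on white blood cells, all 6 NLRP genes, which act in egg cells and in innate immunity, and both SIGLEC genes, sialic acid receptors of immune cells, had a TSS mark in all 6 samples. Of the 8 olfactory receptor genes in the spans, 7 had it in all 6 samples, and of the 3 vomeronasal receptor genes 1 did. Genes outside these families were marked in all 6 samples too, such as MYO1F, a myosin gene, HAS1, a hyaluronan synthase gene, and the mucin gene MUC16, chosen after their values were seen.

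Most of these neighbours lay in 3 clusters, those with at least 5 marked neighbours in a sample. In the clusters from ZNF414 to ZNF846 (chr19:8509678-9793180, hg38), from ZNF175 to ZNF331 (chr19:51571283-53580269) and from ZNF628 to ZNF835 (chr19:55476617-56671783), 33 to 37 of 53 other genes had a TSS mark in a sample (62.3% to 69.8%). Of the 68 ZNF genes in the same 3 clusters, 0 had one in 5 of the samples, and 1, ZNF534, had one in 231K replicate 1. Peaks covered 15.1% to 33.1% of the whole span of the first cluster, 4.09% to 11.6% of the second and 13.7% to 28.7% of the third. The bodies of their ZNF genes were covered to 0.0167% ± 0.0330, 1.25% ± 0.527 and 0% (SD, n = 6). In the third cluster no ZNF gene body had a peak in any sample.

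ZNF317 (chr19:9140397-9163424), chosen with its neighbours after their values were seen, was a close case. It lies between the olfactory receptor genes OR7G3 and OR7D2 and was at 0% in all 6 samples. OR7G3 was covered to 75.5% and 100% in WT, 24.5% and 100% in 231K, and 66.7% and 94.6% in 232P. OR7D2 was covered to 48.4% and 64.1%, 40.1% and 73.7%, and 23.2% and 50.3% in the same order. Both neighbours were thus marked in every sample, with less of OR7D2 covered in each replicate 1 than in the replicate 2 of its genotype. ZNF558, between OR2Z1 and MBD3L1, was at 0% in all samples too, and so were ZNF787 and ZNF444, between NLRP5 and GALP. NLRP5, an egg cell gene, was covered to 84.8% and 91.5% in WT, 80.2% and 93.7% in 231K, and 51.5% and 76.8% in 232P.

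**Figure D3:**
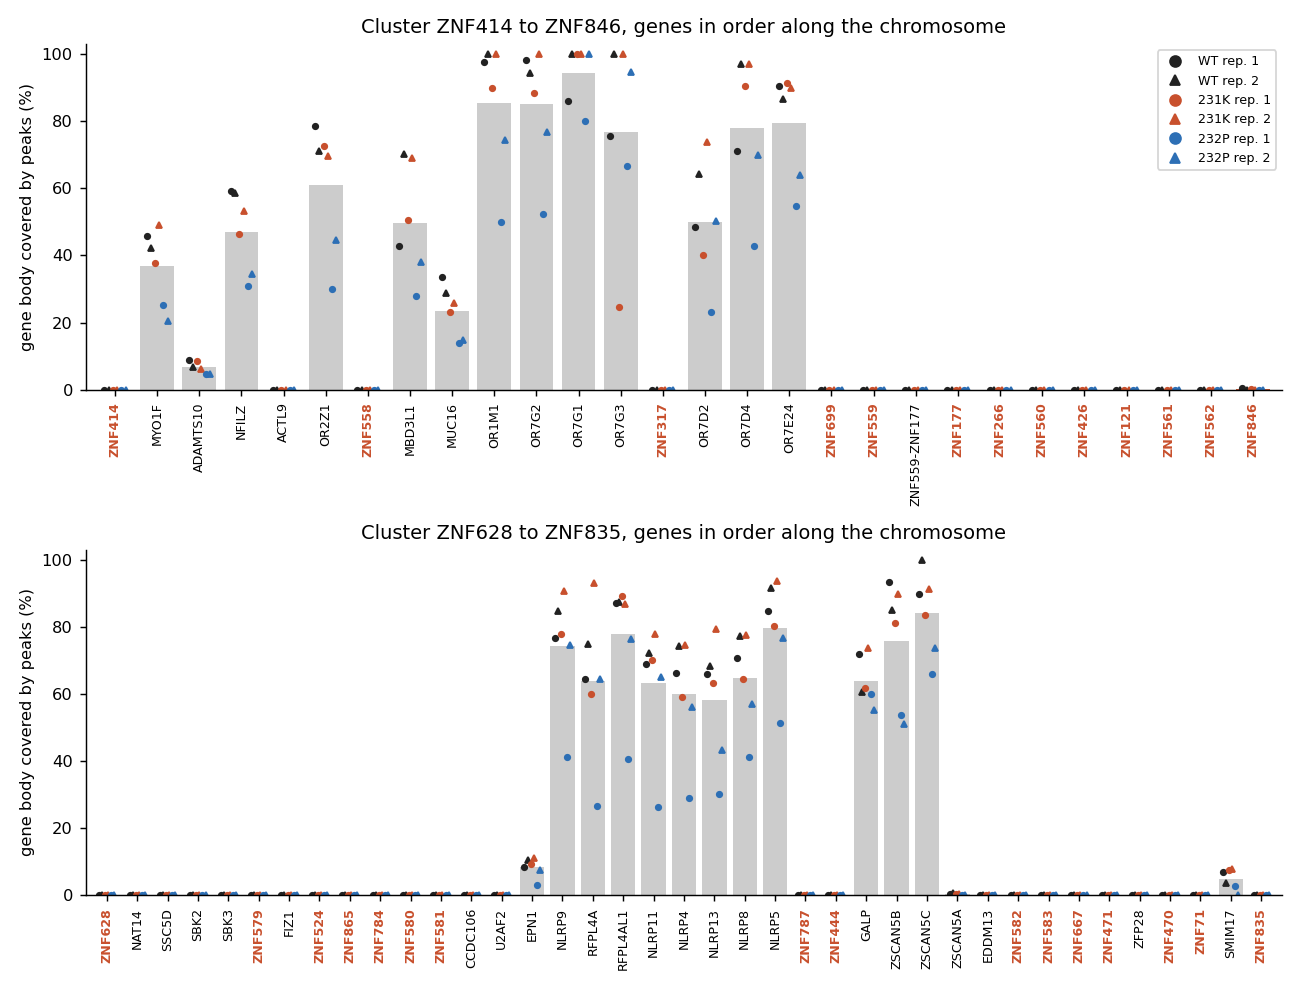
Percent of each gene body covered by peaks (y axis) for all protein-coding genes in 2 of the clusters, in order along the chromosome (x axis). Bars are means of the 6 samples, points are single samples, and names of ZNF genes are in bold red. ZNF317 stands at 0% between OR7G3 and OR7D2, and ZNF787 and ZNF444 stand at 0% between NLRP5 and GALP.

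The spans of the other clusters were less covered. The cluster from ZNF101 to ZNF254, with 37 ZNF genes over 4.46 Mb, was covered to 0.474% to 2.49%, and the 41 ZNF genes next to the end of the long arm, from ZNF264 to ZNF446, lay in a span covered to 0.230% to 1.25%. In the clusters from ZNF653 to ZNF791 and from ZNF565 to ZNF573, coverage of the span was at most 0.460%, and none of the 22 other genes there had a TSS mark. The same held for the 3 other genes from ZNF101 to ZNF254 and the 25 from ZNF264 to ZNF446. From ZNF575 to ZNF180, 1 of 14 other genes had one in each sample. Outside the 3 clusters above, the neighbours were thus almost free of TSS marks too. The remaining 3 clusters were covered to at most 6.39%. One of them, from ZNF575 to ZNF180, held 3 of the 5 ZNF genes with a TSS mark in any sample (ZNF112, ZNF223 and ZNF229), and its ZNF gene bodies were covered to 0.729% ± 0.347, against 1.08% ± 0.391 in the cluster from ZNF101 to ZNF254 (SD, n = 6). The span values are below those of the chromosome outside all clusters, where 7.94% to 16.0% of bases were covered.

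The sequences before the start sites of 4 genes are shown as examples, with their CpG dinucleotides in capitals. CG reads the same on both strands. The sequences are those of RefSeq (GRCh38.p14), the 250 bases before the RefSeq start in 5′ to 3′ direction. ZNF317 (plus strand, chr19:9140147-9140396) and ZNF112 (minus strand, chr19:44356705-44356954) are shown as an unmarked gene in a marked region and, from another cluster, as the ZNF gene with the most TSS marks. OR7D4 (minus strand, chr19:9219590-9219839) and OR7G2 (minus strand, chr19:9107476-9107725), chosen after their values were seen, are olfactory receptor genes on either side of ZNF317.
ZNF317: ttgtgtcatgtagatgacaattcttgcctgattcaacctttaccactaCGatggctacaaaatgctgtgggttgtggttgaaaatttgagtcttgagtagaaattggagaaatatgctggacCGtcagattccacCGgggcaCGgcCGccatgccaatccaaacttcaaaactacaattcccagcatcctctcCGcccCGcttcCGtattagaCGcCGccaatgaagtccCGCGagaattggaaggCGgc
ZNF112: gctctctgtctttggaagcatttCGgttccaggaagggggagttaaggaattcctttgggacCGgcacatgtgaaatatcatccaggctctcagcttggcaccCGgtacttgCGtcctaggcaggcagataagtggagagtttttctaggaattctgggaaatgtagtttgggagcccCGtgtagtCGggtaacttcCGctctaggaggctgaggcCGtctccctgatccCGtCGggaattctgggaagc
OR7D4: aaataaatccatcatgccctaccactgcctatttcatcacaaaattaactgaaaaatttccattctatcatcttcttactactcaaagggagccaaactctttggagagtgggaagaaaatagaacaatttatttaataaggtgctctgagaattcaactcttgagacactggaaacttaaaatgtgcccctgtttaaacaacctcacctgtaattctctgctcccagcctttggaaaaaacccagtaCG
OR7G2: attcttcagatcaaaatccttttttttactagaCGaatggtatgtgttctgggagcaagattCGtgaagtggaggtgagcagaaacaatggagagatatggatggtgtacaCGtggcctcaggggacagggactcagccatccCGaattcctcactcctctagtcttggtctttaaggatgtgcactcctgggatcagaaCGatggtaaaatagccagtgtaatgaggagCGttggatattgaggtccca

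In these windows ZNF317 had 13 CpG and ZNF112 10, and neither window had a peak in any sample. OR7D4 had 1 CpG and OR7G2 6, and both windows overlapped a peak in all 6 samples. At least 1 CG was found in 96.0% of all 35116 RefSeq promoters of 300 bases. A RefSeq promoter was matched for 210 of the 240 ZNF genes, with a median of 20 CpG in 300 bases, and for 957 other chr19 genes, with a median of 21. Among the other genes the TSS mark went with few CpG. It was found at 48.8% on average of the genes with fewer than 10 CpG, at 24.1% of those with 10 to 19 and at 9.11% of those with 20 or more. Among the ZNF genes these shares were 0% of 14 genes, 0.625% of 80 and 0.575% of 116. The ZNF genes thus lay below the other genes in each class.

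Genes of 1 family can be alike enough that reads cannot be placed. Of 100-base windows at the start sites, 99.4% on average were found at no other place of the genome for the ZNF genes and 98.5% for the other chr19 genes. In gene bodies the means were 98.7% and 98.0%. The lowest ZNF gene had 84.3% at its start. Among genes with at least 99% unique windows, 0.476% of 210 ZNF genes and 19.7% of 1110 other genes had a TSS mark on average.

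The 23 ZNF genes with any peak were then described one by one. Together they held 419 peaks over the 6 samples, and ZNF577 and ZNF675 alone held 236 of them (56.3%). An annotated exon, coding or not, was touched by 69 of the peaks (16.5%), and 123 (29.4%) lay in another protein-coding gene as well. The share of the gene bodies that is exon was not set beside this. The annotated gene can be longer than its canonical transcript, the single transcript chosen to stand for it. Within canonical transcripts, 6 of the 240 genes had a peak in any sample, and 0 in all 6. For the other chr19 genes these were 353 (28.6%) and 249 (20.1%) of 1236. In single samples, 0 to 4 ZNF genes had a peak in the canonical transcript, against 272 to 322 other genes.

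ZNF577 (chr19:51804816-51890950, minus strand) had the highest coverage. Peaks covered 23.3% and 23.6% of its body in WT, 18.0% and 24.1% in 231K, and 4.84% and 13.7% in 232P. Both 232P samples lay below all others. Its 106 peaks lay between 51802900 and 51853280, outside its canonical transcript (51867048 to 51887951). The peaks are next to FPR3, a formyl peptide receptor gene (chr19:51795156-51826190) that overlaps the far end of ZNF577 and was itself covered to 61.9% and 67.3% in WT, 51.5% and 76.0% in 231K, and 17.3% and 46.5% in 232P. ZNF649, the gene at the other end of ZNF577, was at 0% in all samples.

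ZNF675 (chr19:23525631-23687220) was covered to 11.3% and 9.84% in WT, 10.8% and 11.1% in 231K, and 3.18% and 10.4% in 232P. The low value was that of 232P replicate 1. Its 130 peaks lay between 23525381 and 23637315, outside the canonical transcript at 23652801 to 23687212, and 5 of them touched an exon. ZNF333 (chr19:14689801-14733746), which lies outside the clusters, was covered to 14.3% and 13.3%, 13.8% and 14.7%, and 5.14% and 9.32% in the same order. Both 232P samples again were lowest. Its 35 peaks began at 14724791, after the end of the canonical transcript at 14721899 and towards the adhesion receptor genes ADGRE3 and ADGRE2. In ZNF20, the 33 peaks lay between 12096424 and 12113716 and the canonical transcript between 12131350 and 12140350.

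ZNF93, a repressor of LINE-1 elements, was covered to 4.53% and 5.92% in WT, 4.14% and 5.78% in 231K, and 1.53% and 0.600% in 232P. Its 10 peaks lay at 19946265 to 19950247, after the canonical transcript, which ends at 19935575. ZNF473, a factor in the 3′ processing of histone messenger RNA, was covered to 3.35% and 4.91%, 4.06% and 3.31%, and 0% and 2.43%. In both genes the 232P samples were lowest. Mean coverage was also lowest in 232P over all protein-coding genes. It was 6.45% ± 1.26 in WT, 6.42% ± 1.74 in 231K and 3.74% ± 2.56 in 232P (SD, n = 2). Over the other chr19 genes it was 11.1% ± 0.165, 10.6% ± 1.69 and 6.96% ± 1.18 in the same order (SD, n = 2).

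**Figure D4:**
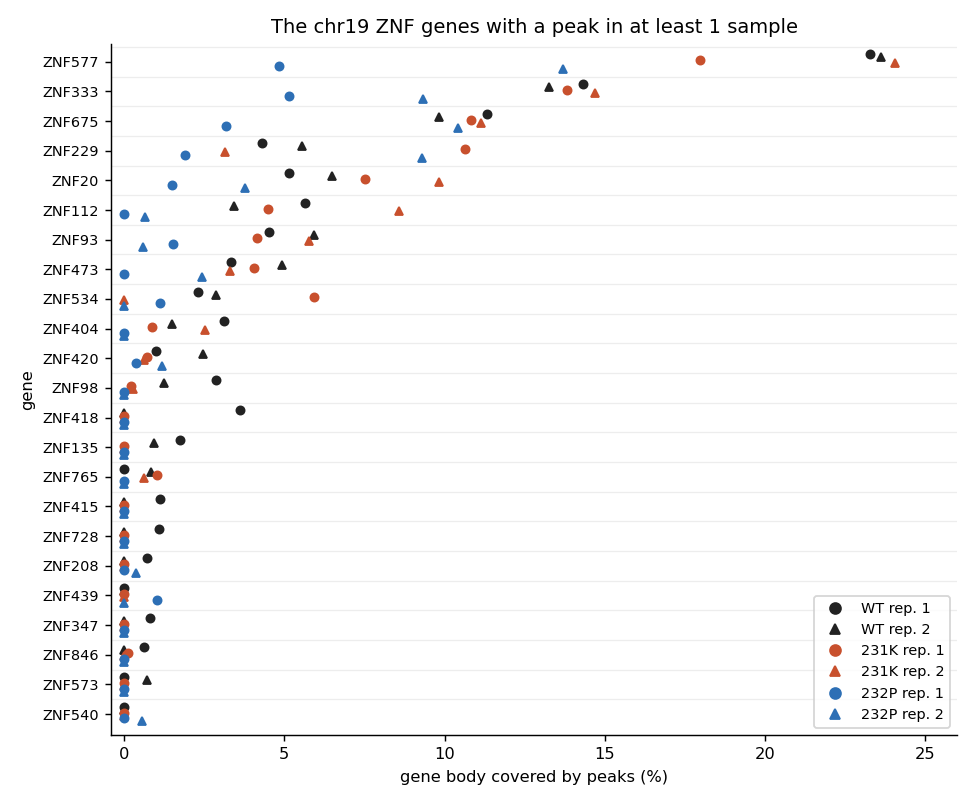
Percent of the gene body covered by peaks (x axis) in each sample, for the 23 chr19 ZNF genes with a peak in at least 1 sample, ordered by their mean (y axis). Colour gives the genotype and shape the replicate number. ZNF577 reaches 24.1%, most genes stay below 6%, and the 232P samples lie at the left for ZNF577, ZNF333, ZNF20, ZNF112, ZNF93 and ZNF473.

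The 5 genes with a TSS mark had it from peaks with a -log10 q-value of at most 3.83. ZNF112 had it in WT replicates 1 and 2 and in 231K replicate 2, at chr19:44366482-44369157. These peaks lie at the outermost of its start sites, about at the end of the annotated gene (44367217), and not at the start of the canonical transcript (44356680), before which the sequence above was taken. Their fold enrichment was 2.41 to 4.20. ZNF229 had a TSS mark in 231K replicate 2 and 232P replicate 2, ZNF223 in WT replicate 2 and 232P replicate 2, ZNF534 in 231K replicate 1 and ZNF540 in 232P replicate 2. The widest of the peaks at these 4 genes was 360 bp. ZNF229 differed in its body, where peaks reached 5724 bp in width, a 10.0-fold enrichment and a -log10 q-value of 16.7, the highest of all peaks in the bodies of ZNF genes. Coverage of its body was 4.31% and 5.54% in WT, 10.7% and 3.14% in 231K, and 1.90% and 9.29% in 232P, so that the replicates of each Tau-KO line were farther apart than the genotypes.

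Peaks in ZNF genes were also narrower and weaker than peaks in other chr19 genes of the same list. In WT replicate 1, the median width was 324 bp against 720 bp, and in WT replicate 2 it was 521 bp against 999.5 bp. In 231K it was 373 bp against 658 bp and 487 bp against 1129.5 bp, and in 232P 317 bp against 461 bp and 516 bp against 810 bp. The median fold enrichment was 3.28 to 3.84 at ZNF genes and 4.05 to 5.00 at other genes, and the median -log10 q-value was 2.18 to 3.12 against 3.06 to 5.34. Ranked within its whole list, the median ZNF peak stood at the 34.8th to 49.4th percentile of the -log10 q-value and the median peak of other chr19 genes at the 70.4th to 79.6th. All 3 values were lower at the ZNF genes in each of the 6 samples. A -log10 q-value of at least 5 was reached by 9 and 6 ZNF peaks in WT, 5 and 12 in 231K, and 0 and 5 in 232P. These few strong peaks were wide, and among peaks at this threshold the median width was 1.31 times that of the other genes on average over the 5 samples that had any.

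**Figure D5:**
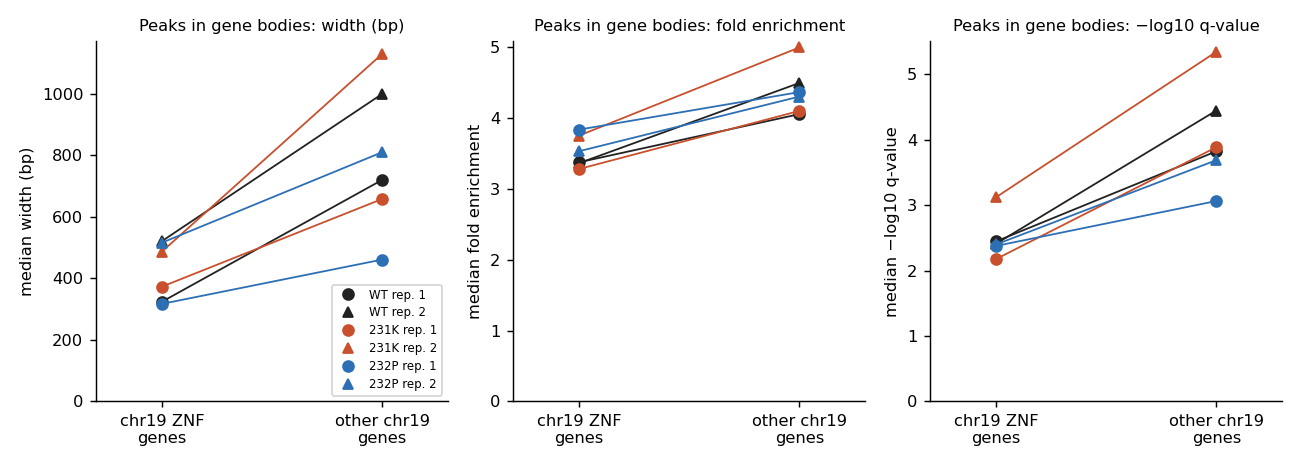
Median width in bp, fold enrichment and -log10 q-value (y axes) of peaks in the bodies of chr19 ZNF genes and of other chr19 genes (x axis). Each line joins the 2 medians of 1 sample, coloured by genotype with the shape giving the replicate number, and every line rises from the ZNF genes to the other genes.

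The genes with and without a peak were compared in the proteins they code for. A KRAB pattern was found in the coding sequence of 183 of the 240 genes (76.3%), and the median number of C2H2 fingers was 12. Of the 23 genes with a peak, 20 had the KRAB pattern (87.0%), and of the 217 without, 163 (75.1%). The median number of fingers was 14 and 12. The genes with a peak were longer, with a median of 40663 bp against 23028 bp. The genes of the partners of the KRAB proteins had no peaks. None of 13 genes for KRAB co-repressors and associated silencing factors (such as TRIM28, SETDB1, ATRX, TASOR and MORC2, with ZNF274 counted here as well) had a peak in any sample, and neither did any of 8 PRC2 genes, among them EZH2, SUZ12, EED and JARID2. Of all protein-coding genes, 73.8% had no peak in the body in any sample and 78.1% had no TSS mark.

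The comparison with the Tau-KO lines asks whether the loss of Tau changed the mark at these genes. A mark was called lost when it was in both replicates of WT but in neither of the line, and gained in the opposite case. ZNF112 was the single ZNF gene whose start was marked in both WT samples. It kept the mark in 1 sample of 231K and was without it in both samples of 232P, where 7% of all marked genes lost theirs. In 231K this was 2.52%. No ZNF gene gained a TSS mark, against 0.206% of all unmarked genes in 231K and 0.0813% in 232P. Of 13 ZNF genes with a peak in the body in both WT samples, 1 lost it in 231K (ZNF135) and 3 in 232P (ZNF98, ZNF404 and ZNF135), where the background was 2.15% and 5.12%. Without WT replicate 2 the counts were 6 and 8, out of the 19 ZNF genes with a peak in WT replicate 1. With peaks of a -log10 q-value of at least 5 they were 0 and 1. The shares over all genes under these 2 settings are not given here. In the main setting no ZNF gene gained a peak in the body, with a background of 0.262% and 0.105%. The peaks of ZNF135 had a -log10 q-value of at most 1.99 and were at most 276 bp wide.

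The number of ZNF genes with a peak in the body was 17.0 ± 2.83 in WT, 13.0 ± 1.41 in 231K and 10.0 ± 1.41 in 232P (SD, n = 2), and the ranges of the genotypes did not overlap. Over all protein-coding genes the order was the same, with 4391 ± 31.1, 4256 ± 161 and 3823 ± 157, and over the other chr19 genes as well, with 345.5 ± 2.12, 329 ± 4.24 and 309 ± 25.5 (SD, n = 2). Both 232P lists held fewer peaks in all than the other lists, and their numbers on chromosome 19 were not the lowest. The estimated depth was lowest of all samples in 232P replicate 2 (56.9%). That of 232P replicate 1 (68.1%) lay between WT replicate 2 (66.6%) and 231K replicate 2 (68.7%). The part of depth in these counts was not tested. With the 147118 strongest peaks of each list, the counts were 12 and 11 in WT, 9 and 10 in 231K, and 9 and 8 in 232P. WT was then still highest, and the Tau-KO lines overlapped.

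Differences in coverage of the gene body were fitted with limma over the 4138 genes with at least 1% covered in at least 2 samples, of which 12 were chr19 ZNF genes. In 231K, 0 of 4138 genes passed an adjusted p of 0.05 (0%), and 82 had an unadjusted p under 0.05. In 232P, 19 genes passed (0.459%), all lower than in WT, 0 were ZNF genes, and 384 of all genes had an unadjusted p under 0.05. With the replicate number as a block, 0 genes passed in either line. The median difference from WT in log2(percent covered + 1) over all genes tested was -0.04 in 231K and -0.93 in 232P. The latter was -0.31 without 232P replicate 1 and -1.48 without 232P replicate 2. A gene could pass the filter through the samples of 1 genotype alone, so that these medians describe only the genes that passed. In 232P the median was 0.03 after quantile normalization, and without the filter it was 0 over 20033 genes, most of which had no peak. For the same reason no median is given for the 12 ZNF genes. ZNF112 was covered to 5.65% and 3.45% in WT, 4.5% and 8.58% in 231K, and 0% and 0.649% in 232P. Its difference from WT was 0.42 ± 0.54 in 231K (SE). It passed the filter without any 232P sample and was named in part for the mark lost in 232P. Its fitted difference for 232P is therefore not given. ZNF98 was covered to 2.87% and 1.25% in WT, 0.209% and 0.275% in 231K, and 0% in both samples of 232P. It passed the filter only through its WT samples, so that its fitted differences are not given. None of the ZNF genes passed the test.

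For the ZNF genes named above by rule, the 4 Tau-KO samples were also compared with the 2 WT samples by two-sided exact permutation tests on the percent covered, where the smallest possible p was 0.067. The smallest p found was 0.267, for ZNF93 (3.01% ± 2.38 in Tau-KO and 5.22% ± 0.986 in WT, SD, n = 4 and 2) and ZNF473 (2.45% ± 1.77 and 4.13% ± 1.11). For ZNF577, with 15.1% ± 8.08 and 23.4% ± 0.244, the exact p was 0.4. This test makes no use of the pairing by replicate number. It also takes the samples of 2 single lines as 4 separate units and ignores differences between the lines. For ZNF577 the mean was 21.0% in 231K and 9.27% in 232P.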

How the data were processed

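H3K27me3 ChIP-seq of SH-SY5Y cells was analysed in 6 samples. The authors mapped the reads to hg38 with BWA and called peaks with MACS (version 2), and 1 list per sample was analysed here. A broad setting of the caller is stated, yet the lists are in the narrowPeak format, and widths, coverage and the number of peaks depend on this setting. The lists also hold more peaks than the methods state, and the step between them was not given in the sources used here. The deposited lists give the ratio of summit to local background (fold enrichment), the -log10 p-value and -log10 q-value, and a score, which is 10 times the -log10 q-value. These depend on depth and were compared within a list, and no interval could be computed without read counts. The q-value threshold was not given in the sources used here. The peaks of both 232P lists carry names starting with 231P, and samples are named here as labelled.

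Genes were those of GENCODE release 44. Peaks counted when they overlapped by at least 1 bp. Group shares were described without a test. Coverage was tested with limma 3.58.1 (R 4.3.3) on log2(percent + 1), with the Benjamini-Hochberg method over all genes tested. On simulated data for 231K against WT, 200 of 4138 genes were changed. Of these, 0% were called at a log2 change of -2 and 74.5% at -6. A fall of 6 on this scale was out of reach for the ZNF genes, of which ZNF577 had the highest WT mean, 23.4%. That no ZNF gene passed therefore does not show unchanged coverage. Deviations from the genotype means correlated between samples of the same replicate number (r = 0.150, 0.234 and 0.131 over 4138 genes), so that the numbers were taken to pair the samples.

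KRAB and C2H2 patterns were searched in translated GENCODE coding sequences. By rule, ZNF genes were named when they had TSS marks in the most samples, had the highest coverage, lost or gained a TSS mark, or have a known role. Other ZNF genes and all neighbouring genes were named after their values were seen. Alternatives were other thresholds, windows, gene models, numbers of peaks and fits, and leaving out each sample. The members and lists were chosen with earlier results of these data known. The results for some genes of the cell type list are not reported here.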

Additional observations from a re-analysis of the deposited data

Results flagged for a closer look

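ZNF20 had a higher coverage than both WT samples in both samples of 231K and a lower one in both samples of 232P. Its body was covered to 5.16% and 6.48% in WT, 7.53% and 9.84% in 231K, and 1.50% and 3.79% in 232P, so that the lines differed by 6.04 percentage points on average. In limma on log2(percent + 1), with both lines in 1 fit, 232P minus 231K was -1.47 ± 0.50 (SE, adjusted p = 0.517 over 4138 genes), and no gene passed. With a pseudocount of 0.1, 46 genes passed in this comparison, and 9 did without the filter, with 0 ZNF genes among them. With the replicate block, quantile normalization or equal numbers of peaks, 0 genes passed. The estimated depth was also higher in 231K (94.8% and 68.7% of the deepest sample) than in 232P (68.1% and 56.9%). The part of depth in the difference was not tested. ZNF20 is the only one of the 17 ZNF genes named by rule with lines on opposite sides of WT in every sample.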

How the results depend on the processing

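The ZNF genes stayed below the other chr19 genes in the TSS mark, the gene body peak and the covered bases under all alternatives run. The differences were -21.6, -21.0 and -8.91 percentage points. At a -log10 q-value of 5 or more they were -14.6, -17.0 and -5.92, and without overlapping genes -28.1, -27.8 and -11.4. For the TSS mark, the difference was -18.6 with the 5′ end of the gene only, and, in alternatives added after the data were seen, -18.9 with the canonical start only and -29.7 against other genes inside the cluster spans. Most of the marked other genes inside the spans lay in 3 of the clusters. For the gene body the difference was -23.9 within canonical transcripts, also added later. Without ZNF577 and ZNF675, likewise added, 0.251% of the bases of the ZNF genes were covered in place of 0.644%. Leaving out single samples gave -22.2 to -21.3, -21.4 to -20.6 and -9.51 to -8.50. The ratio of the median widths, 0.549, turned to 1.31 at a -log10 q-value of 5 or more, where at most 12 peaks per sample were left.

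Counts of ZNF genes that lost or gained a mark moved with some settings, and the cause was not tested. The TSS mark lost in 232P (1) fell to 0 at a -log10 q-value of 5 or more, with equal numbers of peaks and with a window of 2.5 kb, and that window gave 1 gene gained in 231K (0 before). The gene body mark lost in 231K (1) fell to 0 at that -log10 q-value and with a q-value under 0.05, where 1 was gained (0 before), and that lost in 232P (3) fell to 1 at the stricter value. Without single samples, the TSS mark was lost at 0 to 1 genes in 231K and gained at 0 to 1 in 231K and 0 to 2 in 232P. The gene body mark was lost at 1 to 6 (231K) and 4 to 8 (232P) and gained at 0 to 1 in each line. The highest losses, 6 and 8, were those without WT replicate 2, where a mark in WT replicate 1 alone was enough to count.

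The limma calls over all genes (0 in 231K, 19 in 232P) were 0 and 0 with the replicate block, 23 and 67 with a pseudocount of 0.1, 4 and 4 with quantile normalization, 12 and 17 without a filter, and 5 and 11 with equal numbers of peaks. Without single samples they were 0 to 7 in 231K and 0 to 99 in 232P. In 232P the count was 0 without either WT or either 231K sample, 29 without 232P replicate 1 and 99 without replicate 2, and in 231K it was 7 without either 232P sample. An arm of 1 sample was taken to vary like the others. The replicate block changed no call of a ZNF gene, and no ZNF gene was called under any of these settings. The lists hold only what passed the threshold at the depth of each sample, and the part of depth in the counts was not tested.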
